A study of Mus musculus with 8 samples.

Results

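Tubulins are the subunits of microtubules, and the 10 tubulin genes described here are the alpha-tubulin genes Tuba1a, Tuba1b and Tuba1c and the beta-tubulin genes Tubb1, Tubb2a, Tubb2b, Tubb3, Tubb4b, Tubb5 and Tubb6. They were picked by symbol out of the 23284 genes of the deposited table, with their difference between the 2 groups of lungs already known. That difference is therefore given as a description, with no test. All 10 were measured and all 10 passed the filter on low values, 10 or more scaled reads in 4 or more of the 8 libraries, which 14008 genes passed (these are the tested genes).

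Whole lungs of C57BL/6 mice that had received donor bone marrow were taken at 3 days of hypoxic exposure, and their poly(A) RNA was sequenced. In 4 lungs the recipient was wild type (WT) and the transplanted marrow was triply n/i/eNOS-/-, that is, without functional Nos1, Nos2 and Nos3, the genes of the neuronal, inducible and endothelial nitric oxide synthases (called NOS-null marrow). In the other 4 lungs the recipient was WT and so was the marrow (called WT marrow). Lungs are numbered 1 to 4 within a group, as null-marrow lung 1 and WT-marrow lung 1. The groups follow the sample titles. The submitters' design text is at odds with them, since it names NOS-null marrow for both sets of 4, and every comparison here rests on the titles. The series title ties the comparison to nitric oxide synthases of myelocytic cells and pulmonary hypertension under hypoxia. Every animal was a WT recipient and every animal was kept in hypoxia, so the lungs' own cells keep the 3 genes in both groups, and no value here measures the response to hypoxia. The labels used here give no age and no share of donor cells, and they do not say how the lungs of a group relate beyond naming mice. The p-values therefore measure the spread between these lungs.

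An alpha-tubulin and a beta-tubulin form a dimer, and dimers stack into the hollow microtubules that carry cargo, separate chromosomes and build cilia. Mammals have several genes for each subunit, called isotypes, which differ mainly in their acidic tails and in the cell types that use them. Cells hold the pool of free dimers steady: when it grows, the factor TTC5 binds the first residues of a tubulin as it leaves the ribosome and the mRNA being read is destroyed. Dividing cells, activated fibroblasts and smooth muscle, platelets, ciliated cells and nerve fibres are all known for high or special tubulin use in the lung.

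The deposited values are read counts that the authors had scaled between libraries, called scaled reads here (the unit also where a count of reads is given below). They summed to 7767065 to 8625142 per library. Lung genes were present at high level in every library, among them Ager of alveolar type 1 cells (18444 ± 1039.8 in NOS-null marrow lungs and 17806 ± 626 in WT marrow lungs) and Scgb1a1 of airway club cells (155508 ± 20781 in NOS-null marrow lungs and 176071.5 ± 21972 in WT marrow lungs; mean ± SD, n = 4 lungs each, as in all such pairs below). Nos2, one of the deleted genes, had 13.3, 20.8, 40.4 and 43.5 scaled reads in NOS-null marrow lungs, against 87.4, 115, 88.7 and 103 in WT marrow lungs, and the groups did not overlap. Its log2 change was -1.84 (SE 0.33; adjusted p = 0.0221 in limma, a linear model fitted to all 14008 genes with Benjamini-Hochberg adjustment, called at 0.05), and it lost the call without null-marrow lung 2 or any 1 WT-marrow lung (adjusted p over the 8 fits that left out 1 library, 0.0121 to 0.0744). Null-marrow lungs 1 and 2 stood apart from lungs 3 and 4 of their group in B cell genes. The mean log2 deviation of these genes from their mean over all 8 libraries was -3.17, -1.48, 0.23 and 0.31 in the 4 NOS-null marrow lungs. That of neutrophil genes was 3.63, 0.85, -0.43 and 0.23, with lung 1 the farthest out. That of T cell genes was 0.19, 1.26, -0.010 and -0.041, with lung 2 the farthest out. Results are therefore also given without null-marrow lungs 1 and 2, which were not alike in every list.

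Tubulin mRNA was lower in lungs that carried NOS-null marrow. The 10 genes summed to 12065, 11116, 15254 and 15366 scaled reads in NOS-null marrow lungs, against 22367, 21403, 20496 and 19612 in WT marrow lungs. Each of the 4 NOS-null marrow lungs lay below each of the 4 WT marrow lungs, and lungs 1 and 2 were the lowest. The means were 13450.3 ± 2183 in NOS-null marrow lungs and 20969.5 ± 1184 in WT marrow lungs, so the NOS-null marrow lungs held 64.1% of the WT marrow level (a log2 ratio of the means of -0.64, and -0.45 without null-marrow lungs 1 and 2). In 9 of the 10 genes the 4 NOS-null marrow values all lay below the 4 WT marrow values. Of all tested genes, 9.29% were separated in that direction and 7.82% in the other. The exception was Tubb1. All 10 log2 changes were negative, with a median of -0.79, while the median of all 14008 tested genes was 0.00051. In bulk tissue, fewer cells of a type that is rich in tubulin and less tubulin mRNA per cell cannot be told apart.

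**Figure D1:**
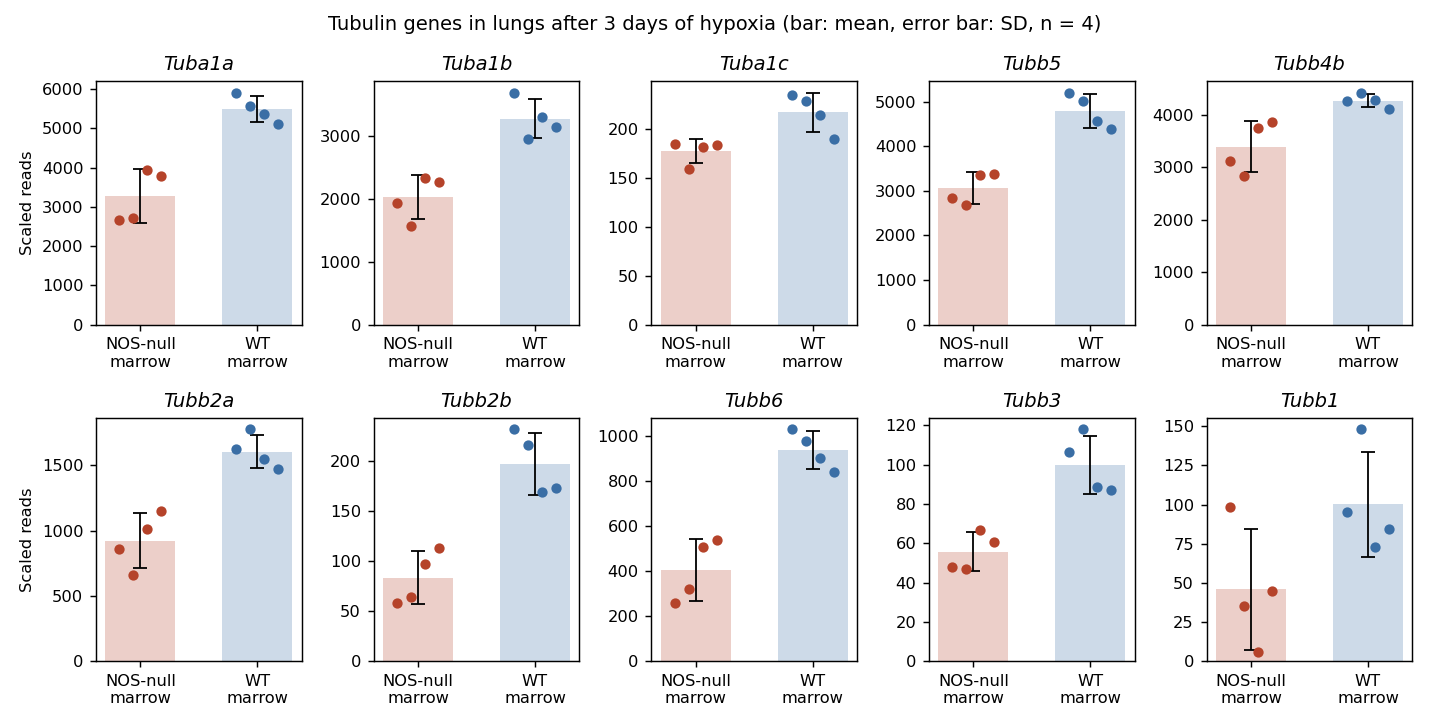
Scaled reads (vertical axes, each from 0) of the 10 tubulin genes in lungs with NOS-null marrow (red) and WT marrow (blue); points are single lungs in replicate order, bars the mean and error bars the SD of 4 lungs. The 2 groups are apart in every gene but Tubb1, where null-marrow lung 1 (98.4) lies among the WT marrow lungs.

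The tubulin coding sequences are close copies of each other, which decides how far a 75-base read can be given to 1 gene. To show how close, the last 60 coding bases, which encode the acidic tail and the stop codon, are printed for 2 pairs of beta-tubulin isotypes, 5′ to 3′, from GENCODE M21 on GRCm38. In the first pair capitals mark the bases that differ from the partner. Tubb2a lies at chr13:34074468-34074527, minus strand and Tubb2b at chr13:34127471-34127530, minus strand.
Tubb2a: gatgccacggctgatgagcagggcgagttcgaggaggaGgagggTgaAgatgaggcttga
Tubb2b: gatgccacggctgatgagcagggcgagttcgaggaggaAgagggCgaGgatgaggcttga
Tubb2a and Tubb2b differ there at 3 of 60 bases. Over the whole coding sequence Tuba1a and Tuba1b were identical at 98.3% of bases, Tuba1b and Tuba1c at 97.9% and Tubb2a and Tubb2b at 96.5%.

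The other beta-tubulin isotypes are farther apart, and the same 60 bases are printed for Tubb5 and Tubb4b, the most abundant of them. Here capitals in Tubb4b mark 24 positions that differ from Tubb5 when the ends are lined up from the last base without gaps. The coding sequence has 1338 bases in Tubb4b and 1335 in Tubb5, so bases can be compared out of register. The 24 can therefore overstate the distance between these ends. Tubb5 lies at chr17:35834982-35835041, minus strand and Tubb4b at chr2:25222308-25222367, minus strand.
Tubb5: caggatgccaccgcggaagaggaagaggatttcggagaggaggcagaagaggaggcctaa
Tubb4b: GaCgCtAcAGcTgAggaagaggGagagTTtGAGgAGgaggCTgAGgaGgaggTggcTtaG
Pairs of beta-tubulin genes other than Tubb2a with Tubb2b were identical at 73.0 to 85.9% of coding bases.

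In the annotated transcripts, 70.4% of the 75-base stretches of Tuba1a, 78.3% of those of Tuba1b and 56.7% of those of Tuba1c also occur, base for base, in another gene. Much of this sharing is among the 3 alpha-tubulin genes themselves, and most of the rest is with unnamed gene models and pseudogenes. The named gene Slc7a11, a cystine transporter, shares 38 stretches with Tuba1a and 47 with Tuba1b. The share was 43.2% for Tubb2a and 32.2% for Tubb2b, mostly with each other. Tubb4b shared 40.9% of its stretches with 4 other genes, 2 of them its own pseudogenes, and none with the other 9 tubulin genes. Tubb1, Tubb3, Tubb5 and Tubb6 shared 0 stretches with any other gene, so no exact copy of a read had to be divided between them and another gene. Values of single alpha-tubulin genes and of Tubb2a and Tubb2b are uncertain for this reason, and their sums are the safer figures. The value of Tubb4b is uncertain too.

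The alpha-tubulin genes lie side by side on chromosome 15. Together they had 4772, 4458, 6455 and 6223 scaled reads in NOS-null marrow lungs, against 9823, 8742, 8867 and 8449 in WT marrow lungs. No NOS-null marrow lung reached the lowest WT marrow lung, and the NOS-null marrow mean was 61.1% of the WT marrow mean (5477 ± 1008 in NOS-null marrow lungs and 8970.1 ± 595 in WT marrow lungs). Their share of reads relative to the 7 beta-tubulin genes was 0.685 ± 0.034 in NOS-null marrow lungs and 0.748 ± 0.040 in WT marrow lungs, and these ratios overlapped.

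Tuba1a (chr15:98949837-98953703, minus strand), the alpha-tubulin best known from developing nerve cells, had 2659, 2726, 3941 and 3781 scaled reads in NOS-null marrow lungs, against 5907, 5565, 5363 and 5119 in WT marrow lungs. Null-marrow lungs 3 and 4 lay nearer to the WT marrow lungs than lungs 1 and 2, with no overlap. The log2 change of Tuba1a was -0.77 (SE 0.13, 95% interval -1.06 to -0.47) in units of log2(scaled reads + 1), as for every log2 change below. Tuba1b (chr15:98931425-98934565, minus strand), an alpha-tubulin of most cell types, had 1929, 1573, 2333 and 2259 scaled reads in NOS-null marrow lungs, against 3681, 2949, 3290.4 and 3141 in WT marrow lungs, with null-marrow lung 2 the lowest and no overlap. This is a log2 change of -0.70 (SE 0.13, 95% interval -0.98 to -0.42). Exons of Tuba1a and Tuba1b overlap other annotated gene models (1 and 2 of them), whose reads cannot be told apart from theirs.

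Tuba1c (chr15:99029891-99038110, plus strand), the third gene of the cluster, was far less abundant and differed least. It had 185, 159, 181 and 184 scaled reads in NOS-null marrow lungs, against 234, 229, 214 and 189 in WT marrow lungs. The highest NOS-null marrow lung lay just below the lowest WT marrow lung. Its log2 change was -0.28 (SE 0.10, 95% interval -0.51 to -0.055), the smallest of the 10.

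Tubb5 (chr17:35833921-35838306, minus strand), a beta-tubulin that most cells use and that is abundant in dividing cells, had 2848, 2684, 3356 and 3380.4 scaled reads in NOS-null marrow lungs, against 5199, 5005, 4570.5 and 4383 in WT marrow lungs. All 4 NOS-null marrow lungs lay well below the WT marrow lungs, and the spread within each group was small. The log2 change was -0.65 (SE 0.098, 95% interval -0.86 to -0.43). Since no stretch of its transcript is shared, its value does not rest on dividing reads between copies. The NOS-null marrow mean was 64.0% of the WT marrow mean.

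Tubb4b (chr2:25222160-25224702, minus strand), a widely used beta-tubulin that is also built into motile cilia, differed less. It had 3119.9, 2844, 3751 and 3857 scaled reads in NOS-null marrow lungs, against 4258.5, 4424, 4281 and 4121 in WT marrow lungs. The groups did not overlap, but null-marrow lungs 3 and 4 lay close to the lowest WT marrow lung. Its log2 change was -0.34 (SE 0.10, 95% interval -0.57 to -0.12), and -0.17 without null-marrow lungs 1 and 2. An exon of Tubb4b overlaps Fam166a on the opposite strand.

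Tubb2a (chr13:34074274-34078007, minus strand) and Tubb2b (chr13:34126748-34130466, minus strand) are neighbours on chromosome 13 and are both known from neurons and from other cells that remodel their shape. Tubb2a had 863, 664, 1017 and 1151 scaled reads in NOS-null marrow lungs, against 1625.5, 1776, 1548 and 1475 in WT marrow lungs, with no overlap and a log2 change of -0.82 (SE 0.15, 95% interval -1.16 to -0.49). Tubb2b had 58.4, 64.6, 97.6 and 113 scaled reads in NOS-null marrow lungs, against 232, 215, 169 and 173 in WT marrow lungs. Its NOS-null marrow lungs all lay below its WT marrow lungs, and lungs 1 and 2 held the fewest. The log2 change was -1.27 (SE 0.21, 95% interval -1.75 to -0.79).

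Tubb6 (chr18:67390717-67402749, plus strand), a divergent beta-tubulin known from muscle and from many non-neuronal cells, had one of the widest gaps. It had 257, 319, 505 and 536 scaled reads in NOS-null marrow lungs, against 1027, 975.1, 899.7 and 840.4 in WT marrow lungs. The highest NOS-null marrow lung, lung 4, was far below the lowest WT marrow lung, also lung 4, and the NOS-null marrow mean was 43.2% of the WT marrow mean. Its log2 change was -1.27 (SE 0.21, 95% interval -1.74 to -0.80), and -0.84 without null-marrow lungs 1 and 2. Like Tubb5, it shares no 75-base stretch with another gene.

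Tubb3 (chr8:123411424-123422015, plus strand), the beta-tubulin used as a marker of neurons, was a low gene in these lungs. It had 48.2, 46.9, 67.0 and 60.9 scaled reads in NOS-null marrow lungs, against 106, 118, 88.7 and 87.0 in WT marrow lungs, with no overlap. On the log2 scale it changed by -0.84 (SE 0.17, 95% interval -1.21 to -0.47). Neuron markers are given with the cell type lists.

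Tubb1 (chr2:174450695-174457882, plus strand) is the beta-tubulin of megakaryocytes and platelets, where it forms the ring of microtubules at the platelet's rim. It had 98.4, 35.4, 5.92 and 44.6 scaled reads in NOS-null marrow lungs, against 95.4, 148, 72.9 and 84.1 in WT marrow lungs. Null-marrow lung 1 lay within the WT marrow range and lung 3 far below every other lung. That lowest value rests on 6 reads, whose exact Poisson 95% interval of 2.202 to 13.1 reads covers counting error only. The log2 change was -1.58 (SE 0.65, 95% interval -3.02 to -0.13), and it was -0.83 without null-marrow lung 3 and -2.11 without null-marrow lung 1.

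**Figure D2:**
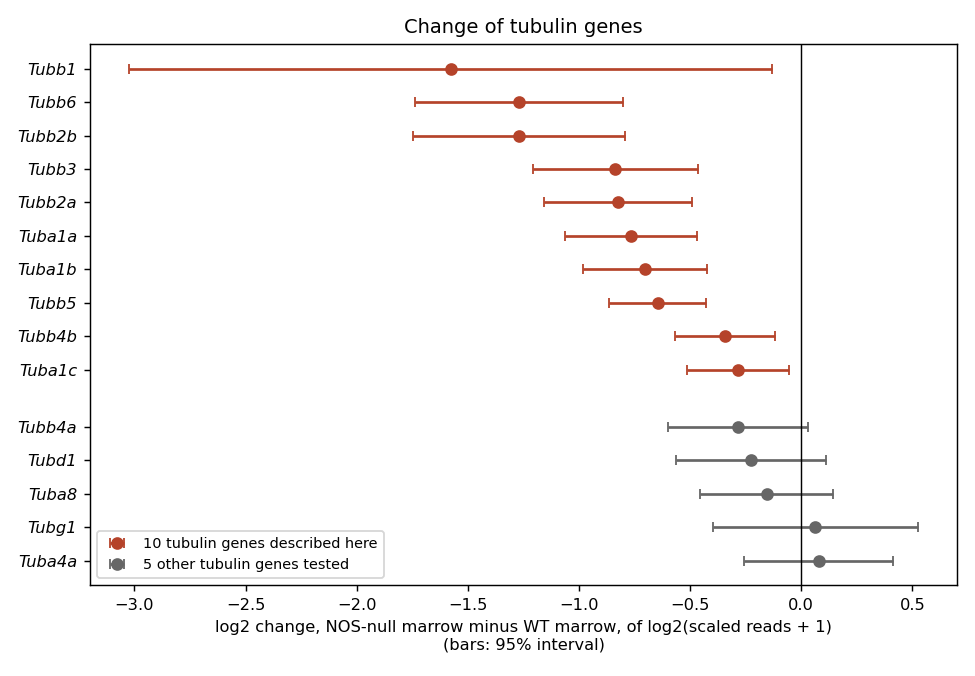
Log2 changes of tubulin genes (horizontal axis, NOS-null marrow minus WT marrow, in log2(scaled reads + 1)), with 95% intervals from the limma fit, for the 10 tubulin genes described here (red) and the 5 other tubulin genes tested (grey). The 10 range from -1.58 (Tubb1) to -0.28 (Tuba1c) and the intervals of all 5 others include 0. The 10 were picked with their difference known, so their intervals are a description and not a test.

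Read against all genes, 7 of the 10 passed an adjusted p of 0.05 in the direction of lower, which 2.18% of tested genes did, and Tuba1c, Tubb4b and Tubb1 did not pass. The choice of the genes used this contrast, so nothing is read from the count. It was 3 without null-marrow lung 2, 0 without WT-marrow lung 1 or 2, 2 without WT-marrow lung 3 and 6 without both null-marrow lungs 1 and 2. Leaving out those 2 lungs moved the log2 change to -0.51 for Tuba1a, -0.57 for Tubb2a, -0.89 for Tubb2b and -2.46 for Tubb1, and to between -0.63 and -0.24 for Tuba1b, Tuba1c, Tubb3 and Tubb5. Of the 10 log2 changes none turned positive under any of the 18 alternative settings.

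Levels of different genes can be set side by side only per length, as FPKM, the authors' fragments per kilobase of transcript scaled to the size of the library. In NOS-null marrow lungs Tubb4b led with 291 ± 41.9 FPKM, then Tuba1a with 282 ± 58.5 FPKM, and their ranges overlapped. In WT marrow lungs Tuba1a led with 473 ± 28.7 FPKM and Tubb4b followed with 366 ± 10.6 FPKM, with no overlap. The order of these 2 genes thus differed between the groups: Tubb4b was above Tuba1a in 3 of 4 NOS-null marrow lungs and below it in all 4 WT marrow lungs. Both genes share 75-base stretches with other genes (70.4% for Tuba1a and 40.9% for Tubb4b), so this order is uncertain.

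The next places were held in the same order in both groups. Tuba1b had 178 ± 30.6 FPKM in NOS-null marrow lungs and 287 ± 27.3 FPKM in WT marrow lungs, and Tubb5 had 150.02 ± 17.3 FPKM in NOS-null marrow lungs and 234 ± 18.5 FPKM in WT marrow lungs. The ranges of these neighbours overlapped with NOS-null marrow and not with WT marrow. Tubb2a followed with 78.8 ± 17.8 FPKM in NOS-null marrow lungs and 137 ± 10.998 FPKM in WT marrow lungs and Tubb6 with 31.4 ± 10.6 FPKM in NOS-null marrow lungs and 72.6 ± 6.39 FPKM in WT marrow lungs, each apart from its neighbours.

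Tuba1c, Tubb2b, Tubb1 and Tubb3 were the 4 lowest genes. Tuba1c had 11.9 ± 0.812 FPKM in NOS-null marrow lungs and 14.6 ± 1.36 FPKM in WT marrow lungs, and Tubb2b had 5.80 ± 1.82 FPKM in NOS-null marrow lungs and 13.7 ± 2.17 FPKM in WT marrow lungs. Tubb1 had 4.59 ± 3.84 FPKM in NOS-null marrow lungs and 9.96 ± 3.30 FPKM in WT marrow lungs, and Tubb3 had 4.39 ± 0.774 FPKM in NOS-null marrow lungs and 7.87 ± 1.17 FPKM in WT marrow lungs. Among these low genes the ranges of neighbours overlapped in both groups, except that Tuba1c lay above Tubb2b in all NOS-null marrow lungs.

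The mix of beta-tubulin isotypes differed as well as the total. Tubb4b made up 51.4 ± 0.597% in NOS-null marrow lungs and 43.5 ± 1.56% in WT marrow lungs of the summed beta-tubulin FPKM, and the groups did not overlap. The shares of Tubb6 (5.45 ± 1.17% in NOS-null marrow lungs and 8.62 ± 0.366% in WT marrow lungs) and Tubb2a (13.8 ± 1.24% in NOS-null marrow lungs and 16.3 ± 0.510% in WT marrow lungs) were smaller with NOS-null marrow, also with no overlap. The rare Tubb2b (1.01% against 1.62%) and Tubb3 (0.775% against 0.932%) had smaller shares too. The shares of Tubb5 (26.7 ± 1.14% in NOS-null marrow lungs and 27.8 ± 0.909% in WT marrow lungs) and of Tubb1 overlapped. Tubb4b, Tubb2a and Tubb2b share 40.9%, 43.2% and 32.2% of their 75-base stretches with other genes, so this mix is uncertain.

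The mix of alpha-tubulin isotypes was closer between the groups. Tuba1a made up 59.6 ± 2.62% in NOS-null marrow lungs and 61.1 ± 1.68% in WT marrow lungs of the summed alpha-tubulin FPKM and Tuba1b 37.8 ± 2.35% in NOS-null marrow lungs and 37.1 ± 1.78% in WT marrow lungs, both with overlapping ranges. Tuba1c made up 2.58 ± 0.394% in NOS-null marrow lungs and 1.88 ± 0.122% in WT marrow lungs, larger in every NOS-null marrow lung. These shares follow from the members' own differences, and single alpha-tubulin values are uncertain because of shared reads.

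**Figure D3:**
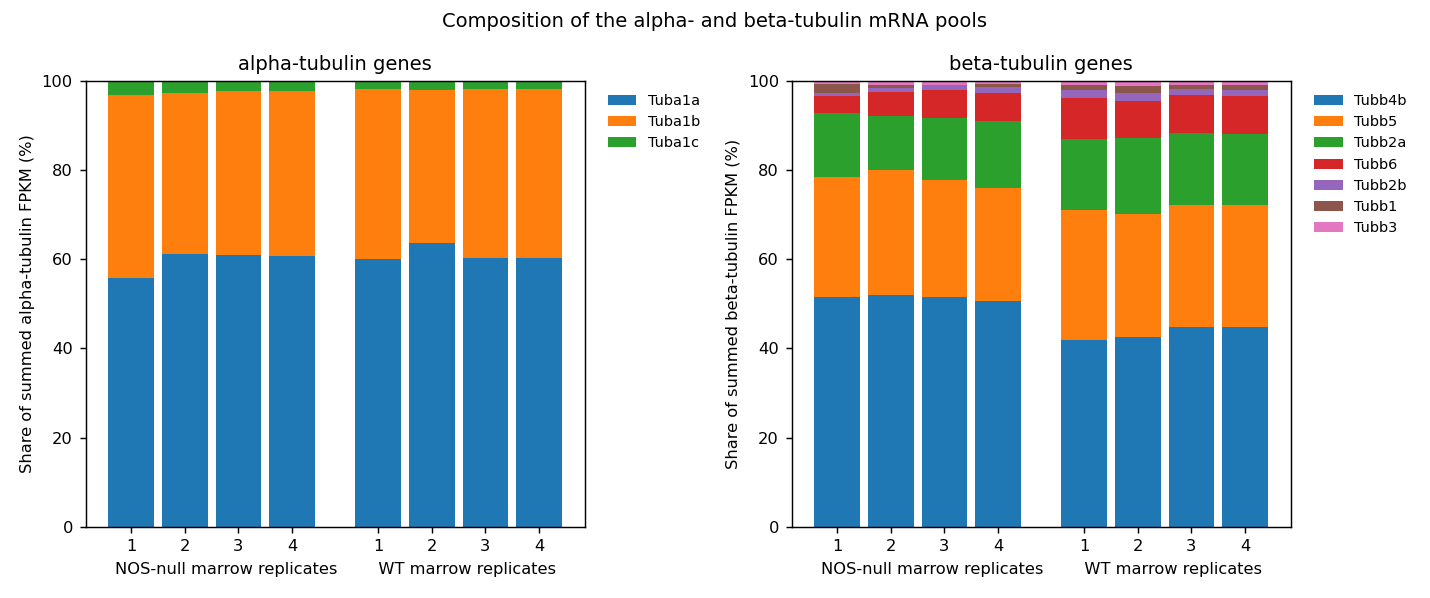
Share of each isotype (vertical axis, percent) in the summed FPKM of the 3 alpha-tubulin genes (left) and of the 7 beta-tubulin genes (right), 1 bar per lung, NOS-null marrow lungs left of WT marrow lungs. Tubb4b fills 50.6 to 52.0% of the beta-tubulin bar in NOS-null marrow lungs and 41.9 to 44.9% in WT marrow lungs.

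The start of the coding sequence is shown next because it encodes the residues that the decay factor TTC5 reads. The first 30 coding bases are printed 5′ to 3′ from GENCODE M21 on GRCm38 for an alpha-tubulin and for beta-tubulins with a large and a small share of the mRNA, with the first 4 codons in capitals. Those of Tuba1a span an intron between chr15:98951665 and 98953453 (minus strand), those of Tubb4b lie at chr2:25224561-25224590, minus strand and those of Tubb2b at chr13:34130204-34130233, minus strand.
Tuba1a start: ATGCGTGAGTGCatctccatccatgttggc
Tubb4b start: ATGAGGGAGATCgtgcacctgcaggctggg
Tubb2b start: ATGCGAGAGATCgtgcacattcaggcgggc
Ttc5 itself, tested with the tubulin cofactors, had 229, 254, 278 and 253 scaled reads in NOS-null marrow lungs, against 297, 320.3, 302 and 291 in WT marrow lungs. The groups did not overlap, and the log2 change was -0.26 (SE 0.088), which did not pass (limma adjusted p = 0.106).

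Promoter windows are shown to compare the letters before the RefSeq starts of tubulin genes that were lower together. RefSeq (GRCm38.p6) windows of 150 bases before the start were matched for 8 of the 10 genes. By the GENCODE M21 positions given above, the windows of Tuba1a and Tuba1b lie inside the gene and that of Tubb3 mostly does. Not all motif matches below therefore lie upstream of the GENCODE starts. 3 windows are printed 5′ to 3′, with CCAAT or TATAAA in capitals, for Tubb4b (chr2:25224703-25224852, minus strand), Tubb5 (chr17:35838302-35838451, minus strand) and Tubb2a (chr13:34078009-34078158, minus strand).
Tubb4b promoter: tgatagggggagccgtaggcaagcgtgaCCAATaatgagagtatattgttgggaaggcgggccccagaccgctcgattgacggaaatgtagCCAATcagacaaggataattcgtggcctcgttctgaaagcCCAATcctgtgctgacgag
Tubb5 promoter: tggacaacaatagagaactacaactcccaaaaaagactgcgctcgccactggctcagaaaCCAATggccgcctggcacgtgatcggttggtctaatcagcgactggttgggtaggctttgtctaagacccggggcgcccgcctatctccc
Tubb2a promoter: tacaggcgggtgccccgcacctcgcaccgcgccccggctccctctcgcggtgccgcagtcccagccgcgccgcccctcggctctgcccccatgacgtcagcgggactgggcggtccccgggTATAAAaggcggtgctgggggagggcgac
CCAAT or its reverse ATTGG occurred in 3 of the 8 windows, Tubb3, Tubb4b and Tubb5, against 24.5% of the 32851 windows in the table. Tubb4b held 3 copies, starting 122, 59 and 19 bases before the start. TATAAA or TTTATA occurred in Tubb2a alone, against 7.57% of all windows. GGGCGG or CCGCCC occurred in 4 of the 8 (28.6% of all), ACGTG or CACGT in Tubb5 alone (11.2%), and TTTGAA or TTCAAA in none of the 8 (9.07%). None of these 5 motifs was held by all 8 windows.

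Genes whose pattern over the 8 libraries was most like that of a tubulin were found by the root mean square difference of centred log2 values, among 9715 genes with a mean of at least 100 scaled reads. For Tuba1b these were Dclk1 (0.055), Dtymk (0.066) and Yif1a (0.084), against a median of 0.42 over all candidates. For Tubb5 they were Stard4 (0.060), Yif1a (0.076) and Lace1 (0.077), against a median of 0.38. For Tubb6 they were Kdelr3 (0.091), Serpinh1 (0.13) and Scn3b (0.13), against a median of 0.73. Tubb6 and Tubb2b differed from each other by 0.096 on this measure and Tuba1b and Tubb5 by 0.11. Kdelr3 had 122, 129, 239 and 241 scaled reads in NOS-null marrow lungs, against 414, 397, 377 and 363 in WT marrow lungs. As in Tubb6, null-marrow lungs 1 and 2 were the lowest and the groups did not overlap. This likeness follows from the choice of Kdelr3 by its pattern over the same lungs.

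Other tubulin genes did not pass the test. Of 10 looked up, 5 were high enough to be tested, 0 passed in either direction and their median log2 change was -0.16. The beta-tubulin Tubb4a had 192, 182, 250.4 and 287 scaled reads in NOS-null marrow lungs, against 256, 281, 282 and 273 in WT marrow lungs (-0.28, SE 0.14, adjusted p = 0.228, limma), and the alpha-tubulin Tuba8 averaged 90.4 ± 10.9 against 101 ± 11.3 (-0.16, SE 0.13, adjusted p = 0.478). The alpha-tubulin Tuba4a averaged 447 ± 117 against 414 ± 23.4 (0.079, SE 0.15, adjusted p = 0.763), its NOS-null marrow mean raised by lung 1 (619). Gamma-tubulin Tubg1, which nucleates microtubules, averaged 116 ± 32.4 against 109.7 ± 22.2 (0.064, SE 0.21, adjusted p = 0.867), and delta-tubulin Tubd1, of centrioles, 55.1 ± 8.50 against 64.1 ± 4.16 (-0.23, SE 0.15, adjusted p = 0.355), NOS-null marrow against WT marrow throughout. The log2 change of Tuba4a was -0.089 without null-marrow lung 1, and that of Tubg1 was -0.098 without null-marrow lung 4. The difference between these 5 genes and the 10 was not tested.

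Of the genes for proteins that fold tubulin, 2 fell. The CCT chaperonin folds newly made tubulin and actin, and prefoldin hands them over. Of 14 genes of the 2 complexes, 13 had negative log2 changes, with a median of -0.20. In 8 of them all NOS-null marrow lungs lay below all WT marrow lungs, as 9.29% of all tested genes did. Cct8 had 1324, 1217, 1342 and 1301 scaled reads in NOS-null marrow lungs, against 1814, 1626, 1712 and 1504 in WT marrow lungs (-0.36, SE 0.076, adjusted p = 0.0341, limma). Cct3 averaged 1067 ± 53.2 against 1357 ± 112, NOS-null marrow against WT marrow (-0.34, SE 0.079, adjusted p = 0.0433). Both lost the call without null-marrow lung 2 or WT-marrow lung 1, 2 or 3, and Cct3 also without null-marrow lung 1 or 3 (adjusted p up to 0.110 for Cct8 and 0.131 for Cct3).

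Of 8 tubulin cofactors and related genes 0 passed (median log2 change -0.075). Cofactors in this list pair the subunits after folding, which is not said here of Tbcel or of the decay factor Ttc5. Tbcel averaged 859.9 ± 105 against 661 ± 38.5 scaled reads (0.37, SE 0.094, adjusted p = 0.0529, limma) and Tbcb 486 ± 21.5 against 559.8 ± 56.1 (-0.20, SE 0.088, adjusted p = 0.181). The gamma-tubulin ring complex, the template on which microtubules start, gave 0 of 9 (median 0.0023). Tubgcp3 averaged 390.4 against 353 and Mzt1 359 against 359 scaled reads. Enzymes that modify tubulin in the polymer gave 0 of 19 (median 0.014). Sirt2, a deacetylase, averaged 819 against 809.8 and Ttll7, a glutamylase, 694 against 653 scaled reads. Dynein, dynactin and transport kinesins, the motors that walk on microtubules, gave 0 of 18 (median -0.0062), with Kif5b at 4504 against 4791 and Dynlt3 at 2137 against 2417 scaled reads, NOS-null marrow against WT marrow.

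Single genes fell in 2 further lists of microtubule proteins. Among 18 microtubule-binding and plus-end genes (median log2 change 0.019) Dclk1, a doublecortin-like kinase that binds microtubules, fell. It had 156, 133, 188 and 188 scaled reads in NOS-null marrow lungs, against 318, 244, 298 and 278 in WT marrow lungs (-0.78, SE 0.14, adjusted p = 0.0198, limma). The call was lost without null-marrow lung 2 or WT-marrow lung 1 or 3 (adjusted p up to 0.0787). Among 10 genes of disassembly and severing (median 0.025) Stmn1, which binds free dimers and is high in dividing cells, fell. It had 492, 504, 544 and 585 scaled reads in NOS-null marrow lungs, against 892, 706, 695 and 694 in WT marrow lungs (-0.49, SE 0.10, adjusted p = 0.0329). Fignl1, of the severing enzyme family, averaged 29.5 ± 9.55 against 65.8 ± 15.6 (-1.17, SE 0.28, adjusted p = 0.0475). Both lost the call without null-marrow lung 2 or any 1 WT-marrow lung (adjusted p up to 0.101 for Stmn1 and 0.145 for Fignl1).

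The other cytoskeletal polymer, cytoplasmic actin with its binding proteins, had 2 of 14 genes that fell and a median log2 change of -0.085. Actg1, gamma-actin, had 17614, 15714, 17779 and 19967 scaled reads in NOS-null marrow lungs, against 23608, 24138, 23559 and 23903 in WT marrow lungs (-0.43, SE 0.096, adjusted p = 0.0405, limma). Tmsb10, which holds free actin, averaged 2572 ± 189.7 against 3519 ± 441 (-0.45, SE 0.098, adjusted p = 0.0372). Actg1 lost the call without null-marrow lung 2 or 3 or any 1 WT-marrow lung, and Tmsb10 without null-marrow lung 1, 2 or 4 or any 1 WT-marrow lung (adjusted p up to 0.111 and 0.108). Over all 9 lists of tubulin partners 7 of 115 tested genes fell and 0 rose, where 4.05% of all genes passed. Since the lists were chosen with earlier results of these data known, nothing is read from that count. 0 of the 7 passed without both null-marrow lungs 1 and 2.

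Which cell types could carry the tubulin difference was examined through lists of marker genes, 28 in number. For each list the mean log2 deviation of its genes in a library from their mean over the 8 libraries was set beside that of the 9 tubulin genes other than Tubb1. For these 9 tubulin genes it was -0.58, -0.66, -0.17 and -0.14 in NOS-null marrow lungs and 0.50, 0.46, 0.32 and 0.26 in WT marrow lungs. The part of any cell type in the tubulin difference was not tested, since whole-lung RNA does not assign a tubulin read to a cell. Over the 28 lists 18 of 183 tested genes fell and 5 rose, where 2.18% of all tested genes fell and 1.87% rose. The lists were chosen with earlier results of these data known, so nothing is read from these counts.

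**Figure D4:**
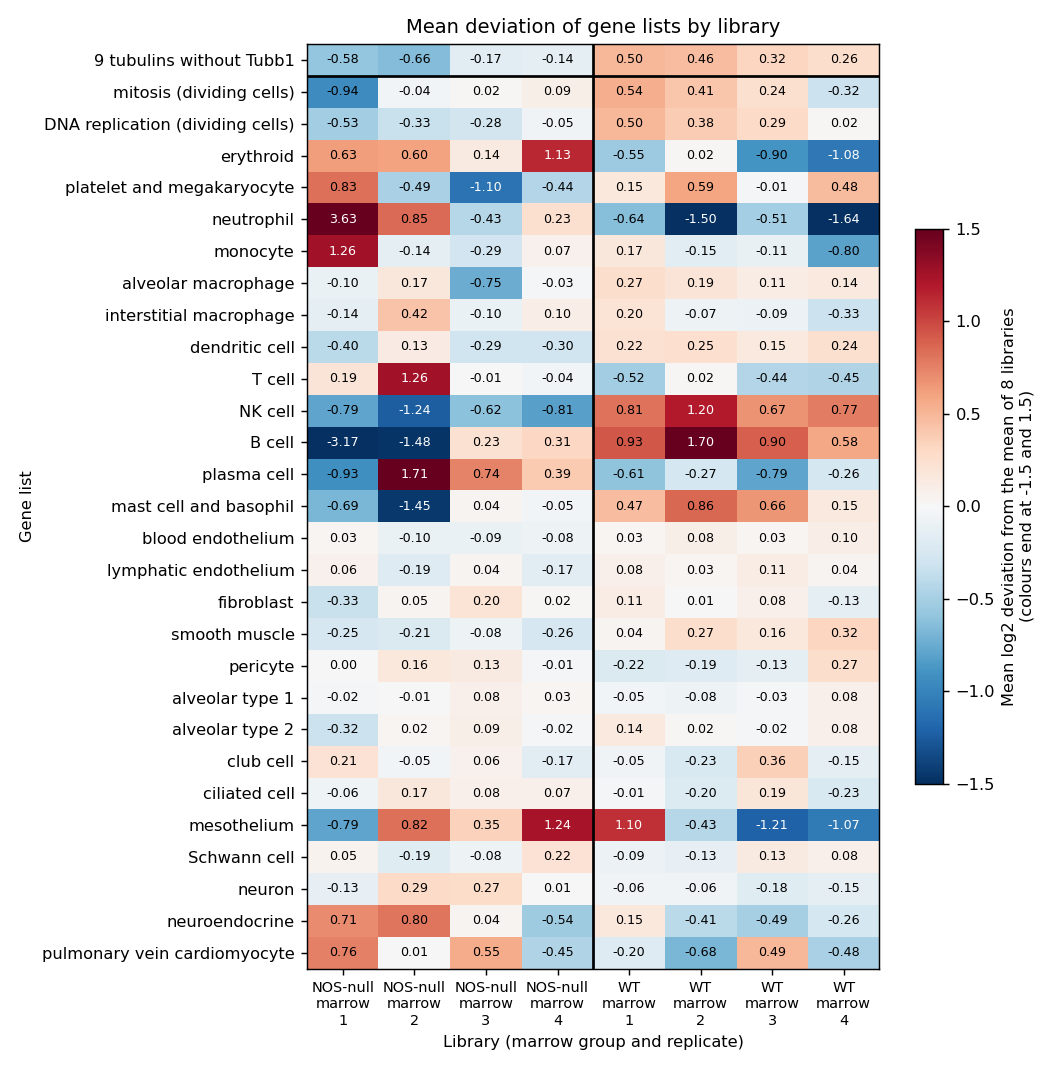
Mean log2 deviation from the 8-library mean (colour and printed value; colours end at -1.5 and 1.5) of the 9 tubulin genes without Tubb1 (top) and of 28 marker lists (vertical axis) in each lung (horizontal axis, NOS-null marrow lungs left of WT marrow lungs). The DNA replication, smooth muscle, NK cell, B cell, dendritic cell and mast cell lists separate the groups in the direction of the tubulins. The neutrophil and erythroid lists separate them in the other, while the alveolar type 1 list stays between -0.082 and 0.077. In the dendritic cell list only 3 of 6 genes had negative log2 changes (median 0.081). The mast cell list rests on 2 tested genes, and the summed scaled reads of both these lists overlapped between the groups.

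Dividing cells were followed by 2 lists. Of 12 DNA replication genes, 6 fell and all 12 had negative log2 changes, with a median of -0.59. Mcm2 had 95.3, 97.9, 113 and 136 scaled reads in NOS-null marrow lungs, against 250.4, 247, 209.9 and 166 in WT marrow lungs (-0.97, SE 0.16, adjusted p = 0.0182, limma). The other helicase genes Mcm6 (-0.58, SE 0.11, adjusted p = 0.0245), Mcm3 (-0.60, SE 0.12, adjusted p = 0.0309) and Mcm5 (-0.83, SE 0.17, adjusted p = 0.0314) also fell. In each of the fits without null-marrow lung 2 or WT-marrow lung 1, 2 or 3, 0 genes of the list passed (adjusted p up to 0.0735 for Mcm2 and 0.106 for Mcm5). The list summed to 2459 to 3119 in NOS-null marrow lungs and 3256 to 4298 in WT marrow lungs, without overlap.

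The mitosis list, whose cells need tubulin for the spindle, did not separate the groups. Its 16 genes all had negative log2 changes (median -0.48), 0 passed, and the sums overlapped, at 784 to 1638 in NOS-null marrow lungs and 1169 to 2332 in WT marrow lungs. Top2a had 109, 298, 273 and 310.0 scaled reads in NOS-null marrow lungs, against 507, 422, 358 and 184 in WT marrow lungs and Mki67 170.2, 281, 224 and 281 scaled reads in NOS-null marrow lungs, against 331, 338, 246 and 161 in WT marrow lungs. The list's mean deviation was -0.94, -0.042, 0.023 and 0.086 in NOS-null marrow lungs and 0.54, 0.41, 0.24 and -0.32 in WT marrow lungs. In WT-marrow lung 4 it lay below null-marrow lungs 2, 3 and 4, while the tubulin genes there lay above all of them.

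Smooth muscle genes fell in 4 of 9, and 8 of the 9 log2 changes were negative (median -0.49). Acta2, smooth muscle actin, had 6644, 5714, 7991 and 7003 scaled reads in NOS-null marrow lungs, against 14994, 14413, 12819 and 13037 in WT marrow lungs (-1.02, SE 0.11, adjusted p = 0.00248, limma). Tagln (-0.93, SE 0.095, adjusted p = 0.00205), Des (-0.52, SE 0.087, adjusted p = 0.0181) and Cnn1 (-0.49, SE 0.10, adjusted p = 0.0317) also fell. Acta2 and Tagln passed in all 8 fits that left out 1 library. Des lost the call without null-marrow lung 2 or WT-marrow lung 1 or 2, and Cnn1 without null-marrow lung 2 or any 1 WT-marrow lung (adjusted p up to 0.0731 and 0.106). The list summed to 20858 to 24402.5 in NOS-null marrow lungs and 33268 to 37161 in WT marrow lungs, without overlap, and 9 of 9 markers were present. Its mean deviation was -0.25, -0.21, -0.078 and -0.26 in NOS-null marrow lungs and 0.043, 0.27, 0.16 and 0.32 in WT marrow lungs.

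Other cells of the vessel wall and the stroma gave few calls. Of 9 fibroblast genes 0 passed (median -0.013), with Pdgfra at 3804 against 2962 and Dcn at 3187 against 2737 scaled reads, NOS-null marrow against WT marrow. Of 7 pericyte genes 1 fell, Higd1b (-0.46, SE 0.11, adjusted p = 0.0425, limma), and of 9 blood endothelium genes 1, Emcn (-1.21, SE 0.16, adjusted p = 0.00721). Higd1b lost the call without null-marrow lung 2 or 4 or any 1 WT-marrow lung (adjusted p up to 0.131), and Emcn passed in all 8 such fits. With 1 lung left out, 1 fibroblast gene passed without null-marrow lung 1, 3 or 4, 2 pericyte genes without null-marrow lung 3 and 2 blood endothelium genes without null-marrow lung 1 or 3. The fibroblast list summed to 10578 to 13641 in NOS-null marrow lungs and 9941 to 11769 in WT marrow lungs and the blood endothelium list to 34178 to 41377 in NOS-null marrow lungs and 33942 to 35505.5 in WT marrow lungs, both overlapping.

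Markers of lymphoid cells, which marrow donors supply, gave calls for NK cells. NK cell genes fell in 3 of 5 tested, Klra8 (-2.73, SE 0.39, adjusted p = 0.00962, limma), Gzma (-1.29, SE 0.22, adjusted p = 0.0191) and Klrb1c (-1.62, SE 0.36, adjusted p = 0.0402). The list of 7 summed to 101 to 164 in NOS-null marrow lungs and 263 to 384 in WT marrow lungs. Gzma and Klrb1c lost the call without null-marrow lung 2 or any 1 WT-marrow lung, and Klrb1c also without null-marrow lung 3 (adjusted p up to 0.0731 and 0.125). Klra reads can move between copies of this gene family. B cell genes had a median log2 change of -2.22 with 0 of 6 passing (1 without null-marrow lung 1 or 3 and 2 without null-marrow lung 4) and sums of 133 to 993 in NOS-null marrow lungs and 1287 to 2636 in WT marrow lungs. Cd79b had 43.1, 89.5, 246 and 238 scaled reads in NOS-null marrow lungs, against 450.1, 632, 400.1 and 347 in WT marrow lungs (-1.85, SE 0.49, adjusted p = 0.0578), and Cd79a averaged 149.9 ± 126 against 459 ± 129 (-2.23, SE 0.72, adjusted p = 0.0916).

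Ciliated cells and neurons, users of Tubb4b and Tubb3, gave 0 calls in their marker lists. The 11 ciliated cell genes had a median log2 change of 0.15 and overlapping sums of 3468 to 4484 in NOS-null marrow lungs and 3584 to 4825 in WT marrow lungs. Tppp3 averaged 2189 ± 311 against 2449 ± 282 and Foxj1 702 ± 137 against 629.7 ± 114 scaled reads, NOS-null marrow against WT marrow. Of 6 neuron genes 3 were high enough to be tested, 0 passed and the median was 0.21, with Stmn2 at 751 ± 57.5 against 712 ± 49.4 and Uchl1 at 74.0 ± 23.7 against 54.4 ± 9.36 scaled reads. No neuron gene was at 0 in every library, but Snap25 and Elavl4 stayed under 4 scaled reads throughout.

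Tubb1 was set beside platelet genes, because platelets and megakaryocytes are the cells known to use it. Of 10 tested platelet genes 0 passed, 9 had negative log2 changes (median -0.60) and the sums overlapped, at 431 to 1617 in NOS-null marrow lungs and 924 to 1333 in WT marrow lungs. This count rested on null-marrow lung 1: without it 5 of the genes passed, and 2 without both null-marrow lungs 1 and 2. Ppbp, a platelet chemokine, had 435, 134, 85.8 and 144 scaled reads in NOS-null marrow lungs, against 432, 553, 305 and 376 in WT marrow lungs (-1.31, SE 0.41, adjusted p = 0.0862, limma). Pf4, another one, had 399, 233, 174 and 224 scaled reads in NOS-null marrow lungs, against 231, 213, 206 and 212 in WT marrow lungs (0.19, SE 0.21, adjusted p = 0.582). In these genes as in Tubb1, null-marrow lung 1 was the highest and lung 3 the lowest of the NOS-null marrow lungs.

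**Figure D5:**
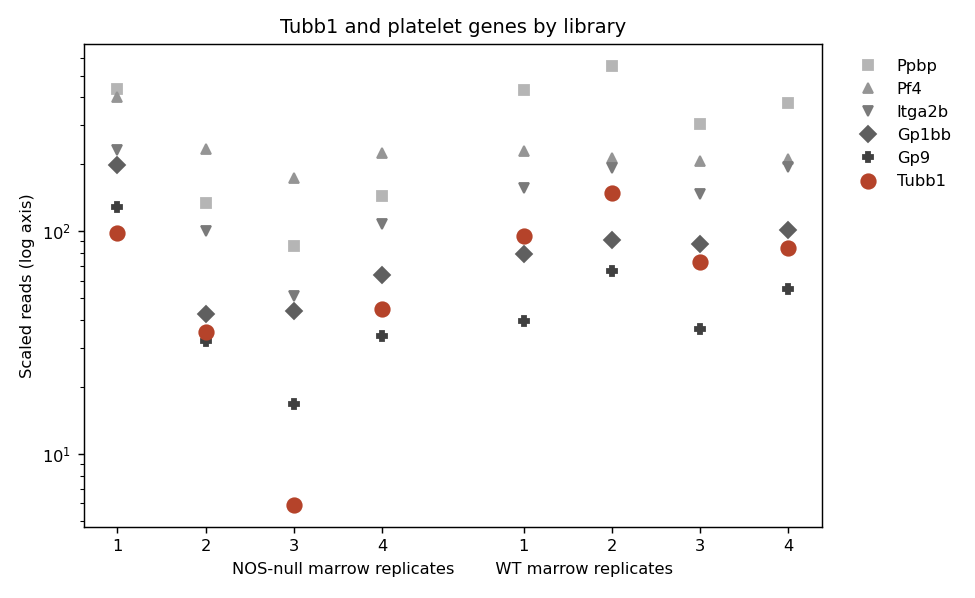
Scaled reads (vertical log axis) of Tubb1 (red) and 5 platelet genes (grey) in each lung, NOS-null marrow lungs left of WT marrow lungs. In all 6 genes null-marrow lung 1 is the highest of its group, and in 5 of the 6 lung 3 is the lowest.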

How the data were processed

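Per the labels' protocols, poly(A) RNA of 8 lungs was sequenced as 75 bp single-end reads on an Illumina HiSeq, and strand is not stated. Per the submitters' processing notes, CASAVA 1.8.2, TopHat2 2.0.13, Bowtie2 2.2.3, SAMtools 0.1.19 and Cufflinks 2.2.1 were used with mm10; no source used here gives their settings or gene annotation. The deposited gene table holds a signal on the read count scale that the authors had scaled between libraries (scaled reads). The deposited FPKM table, from the same tools, served for levels per length and as an alternative. In each library 98.6 to 98.9% of values above 0 were whole multiples of 1 step (tolerance 0.05), but 8 to 15 were smaller than it, so no count model was used.

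Values were increased by 1 and log2-transformed, and limma 3.58.1 was fitted to the 14008 genes that reached 10 scaled reads in 4 or more libraries (R 4.3.3, trend on, not robust, no other term), NOS-null marrow minus WT marrow. A gene passed when its p, adjusted by Benjamini and Hochberg's method over the whole table, was under 0.05. The FPKM alternative added 0.1. No batch is given in the labels used here. The procedure was tested on simulated data with known changes.

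The members and gene lists were chosen with earlier results of these data known. Named genes are the 10 tubulins, Nos2, all tested genes of the list of other tubulins, up to 4 passing genes of smallest p per other list (otherwise the 2 of highest mean), and the 3 genes most like Tuba1b, Tubb5 and Tubb6. Some genes and sequences that this rule would name are not reported here. Ttc5, Snap25, Elavl4, Slc7a11 and Chi3l3 were also named, after their values were seen. Shared stretches were counted as identical 75-base words on either strand between annotated GENCODE M21 transcripts (GRCm38, the assembly of mm10). Alternatives covered pseudocount, filter, scaling, the FPKM table, a robust fit, a replicate block and libraries left out.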

Additional observations from a re-analysis of the deposited data

Results flagged for a closer look

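Among 98 groups of 4 lungs examined for a lung far from the others, 4 held one, where chance gives about 1 in 20. The scaled reads of Tuba1c in null-marrow lung 2 were 159.304, against 181.416 to 184.548 in the other 3 NOS-null marrow lungs. Stmn1, which binds free tubulin, had 892.239 in WT-marrow lung 1, against 693.851 to 706.246 in the other WT marrow lungs. Delta-tubulin Tubd1 had 70.2499 in WT-marrow lung 2, against 61.0976 to 62.5958 in the others. The NK cell gene Klra8 had 6.90171 in null-marrow lung 3, against 2.05053 to 2.17527 in the others. Without the lung in question the log2 change was -0.23 in Tuba1c and stayed negative in the other 3 genes.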

How the results depend on the processing

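The count of genes passing limma, 567 of 14008 (262 higher, 305 lower; 3723 at an unadjusted p under 0.05), was 71 to 798 with 1 lung left out: 71, 81, 87 and 233 without WT-marrow lungs 1, 2, 3 and 4, and 492, 95, 757 and 798 without null-marrow lungs 1, 2, 3 and 4. With null-marrow lungs 1 and 2 both left out 181 passed, and the 567 hold 144 of them. The count was 395 with the FPKM table and 661 with upper quartile scaling, the extremes of the other pseudocounts, filters, scalings and the robust fit. The count of tubulin partner genes that passed, 7, was 4 with the FPKM table, 4 with no filter on low values, 0 without both of those lungs, and 0 to 7 with 1 lung left out. It was 9 with a filter of at least 50 in at least 4 libraries and 9 with upper quartile scaling. The cause of these shifts was not tested. The log2 ratio of summed tubulin reads was -0.64, between -0.71 and -0.56 with 1 lung left out and -0.45 with null-marrow lungs 1 and 2 both left out. Pseudocounts, filters, the robust fit and the block have no bearing on this sum.

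The replicate numbers were also fitted as a block: 135 genes passed (81 higher, 54 lower) and, among them, 1 of the 10 tubulin genes (7 without the block) and 1 partner gene. Deviations of lungs with the same number correlated at 0.043, 0.17, -0.0027 and 0.15. For numbers 2 and 4 the lungs of the 2 groups were each other's nearest in the opposite group. The labels used here do not say whether lungs with the same number were paired, and pairing was not tested.

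Alternatives for single lists and single genes were added after seeing the data. Of the 10 tubulin genes none changed sign under any of the 18 alternatives. Tuba4a was reversed at -0.089 without null-marrow lung 1 and -0.039 with null-marrow lungs 1 and 2 both left out (0.17 at most with 1 lung left out). Tubg1 was reversed at -0.098 without null-marrow lung 4 and -0.032 without WT-marrow lung 1 (0.22 at most). Of 30 list genes that passed, 7 passed in all 8 fits with 1 lung left out, and none changed sign. Low genes such as Tubb1 are limited by depth, since 1 read is worth 0.937 to 1.088 scaled reads.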

Other observations

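Red cell markers were higher in lungs with NOS-null marrow, opposite to the tubulin genes. Of 6 erythroid genes 3 rose, among them Alas2, the haem synthesis enzyme of red cells (1.41, SE 0.12, adjusted p = 0.000975, limma), and Slc4a1, the red cell anion exchanger (1.04, SE 0.24, adjusted p = 0.0433). The list summed to 5231 to 7861 in NOS-null marrow lungs and 2414 to 2743 in WT marrow lungs. Alas2 passed in all 8 fits that left out 1 lung. Slc4a1 lost the call without null-marrow lung 1, 2 or 4 or WT-marrow lung 1, 3 or 4 (adjusted p up to 0.125).

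Neutrophil genes had 0 of 8 passing and a median log2 change of 2.29, with S100a8 at 39729, 3246, 1428 and 1736 scaled reads in NOS-null marrow lungs, against 1141, 518, 1336 and 441 in WT marrow lungs and S100a9 at 9043 against 788 on average. Null-marrow lung 1 was the highest for both. Of the 8 genes 6 were higher in every NOS-null marrow lung than in any WT marrow lung, as 7.82% of all tested genes were. In the neutrophil list 3 genes passed without null-marrow lung 1 and 4 without null-marrow lung 3. T cell genes had 0 of 8 passing (median 0.70), with Tcf7 at 137 against 104 and Cd4 at 104 against 42.4. Monocyte genes had 0 of 5 (median 0.45), with Csf1r at 1189 against 869 and Ccr2 at 1210.1 against 654, and interstitial macrophage genes 0 of 6 (median 0.55), with C1qb at 897 against 561 and C1qa at 846 against 518. Averages are NOS-null marrow against WT marrow.

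Single markers fell in the alveolar macrophage list, Siglec5 (-1.52, SE 0.17, adjusted p = 0.00248, limma; 1 of 7), and in the dendritic cell list, Cd209a (-2.37, SE 0.34, adjusted p = 0.00947; 1 of 6), and both passed with any 1 lung left out. The alveolar macrophage list as a whole had a median log2 change of 0.21 and summed to 8270.2 to 23021 in NOS-null marrow lungs and 6341 to 7539 in WT marrow lungs, a sum made up mostly of Chi3l3. In that list 2 genes passed without null-marrow lung 1 and 3 without null-marrow lung 3 or 4. Ccl21a of lymphatic endothelium also fell (-0.55, SE 0.13, adjusted p = 0.0457; 1 of 4), but not without null-marrow lung 2 or any 1 WT-marrow lung (adjusted p up to 0.127). Igj of plasma cells (2.89, SE 0.67, adjusted p = 0.0448; 1 of 3) and Mbp of Schwann cells (0.41, SE 0.094, adjusted p = 0.0430; 1 of 3) rose, while the median log2 change of the Schwann cell list was negative, at -0.18. Igj lost the call without null-marrow lung 2 or 3 or any 1 WT-marrow lung, and Mbp without null-marrow lung 1, 2 or 4 or any 1 WT-marrow lung (adjusted p up to 0.137 and 0.113).

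The epithelial lists gave 0 calls. The median log2 change was 0.066 in 7 alveolar type 1 genes (Emp2 14728 against 13555 scaled reads), -0.065 in 7 alveolar type 2 genes (Sftpc 82561 against 99604, Sftpb 28024 against 29955) and -0.010 in 4 club cell genes (Cyp2f2 11687 against 11403). Likewise 0 passed among 3 mesothelial genes (median 0.57; Msln 569 against 250.2, Upk3b 128 against 97.6), 2 mast cell genes (median -1.07; Cpa3 13.3 against 19.1, Cma1 4.85 against 14.9), 1 neuroendocrine gene (Calca 14.9 against 9.67) and 6 genes of pulmonary vein cardiomyocytes (median 0.44; Actc1 1209.5 against 1136, Myh6 1171 against 659). With 1 lung left out, 1 gene each passed in the alveolar type 2 and mast cell lists without null-marrow lung 3, in the cardiomyocyte list without null-marrow lung 4, in the mesothelial list without WT-marrow lung 1 and in the interstitial macrophage list without null-marrow lung 1.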
